A study of Homo sapiens with 24 samples.

Results

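The vehicle-treated libraries are the untreated reference of a study in SW1783, an established human astrocytoma cell line that grows attached in culture. They were chosen by their labels, as the 6 libraries given only the vehicle (3 of batch A and 3 of batch B) among 24 libraries in all. All cultures were kept in Leibovitz's L-15 medium with heat-inactivated serum and without added CO2, and the vehicle was PBS with 0.1% DMSO for 24 h. The other 18 libraries received a water extract (WESF, batch A) or an ethanol extract (EESF, batch B) of Schisandrae Fructus, the dried fruit of Schisandra chinensis, and only the high doses of 500 and 310 µg/mL were set against the vehicle here. All libraries come from 1 cell line, and no source used here says that replicates were separate cultures, so p-values measure the spread between these libraries, which may be technical. The total expected count was 27850237, 28461785 and 26447817 for vehicle A and 20245403, 20465702 and 18727769 for vehicle B, so each vehicle A library was deeper than each vehicle B library. The high-dose libraries, used only in the last comparisons, had 24692272, 20731720 and 23414241 (WESF) and 29659073, 32567390 and 31255279 (EESF).

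Astrocytes are the glial cells that clear glutamate and potassium around synapses, carry water through aquaporins, share small molecules through gap junctions and release matrix and growth factors. Mature astrocytes are recognised by the intermediate filament protein GFAP and by glutamate carriers, whereas vimentin and CD44 mark immature, reactive or malignant glia and many cells of mesenchymal origin as well. Cell lines from astrocytic tumours keep a part of this programme, and their surface receptors and secreted factors set which signals they can receive and send.

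Levels are given in TPM, which divides counts by gene length and so allows comparison between genes. A gene was taken as expressed at 1 TPM or more in each of the 6 libraries, as undetected at 3 counts or fewer in each, and as low otherwise. By this rule 11678 of 19586 protein-coding genes (59.6%) were expressed, 2894 (14.8%) were low and 5014 (25.6%) were undetected. A count of 3 amounts to 0.160 CPM (counts scaled to the library total) in the smallest vehicle library and to 0.105 CPM in the largest. The floor of detection thus differed between libraries, and a gene at or below it in each counted as undetected. The median was 18.9 TPM over expressed genes and 4.95 TPM over all protein-coding genes.

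Apart from genes of the mitochondrial DNA and ribosomal proteins, the most abundant transcripts were those of the cytoskeleton, iron storage and the matrix. Cytoplasmic actin ACTB led with 6183 to 6793 TPM (median 6523), followed by the glycolytic enzyme GAPDH with 5178 to 5850 TPM (median 5522). The ferritin light chain FTL had 4797 ± 224 TPM and TMSB10, which binds actin monomers, had 4324 ± 330 TPM (mean ± SD, n = 6, as for every mean below). The intermediate filament gene VIM had 2984 ± 49.95 TPM. Below it came the actin gene ACTG1 (2901 ± 104 TPM), the actin-binding TMSB4X (2548 ± 126 TPM), the calcium-binding S100A6 (2451 ± 432 TPM) and the secreted IGFBP7 (2349 ± 170 TPM). Neighbours in this order lay within their spread from VIM to ACTG1 and from TMSB4X to IGFBP7, and S100A6 had the widest spread of the genes named here. The 14 reference genes that every cell uses were all expressed, with a median of 488 TPM.

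Genes with at least 1000 TPM numbered 53, including all 13 protein genes of the mitochondrial DNA and 4 ribosomal protein genes, and they held 43.0% of all TPM. The mitochondrial genes alone held 34.3% of TPM but 9.71% of counts, and 22.7% of TPM when the canonical transcript set the length. Their summed level was 321900, 328800 and 333600 TPM in vehicle A and 351000, 360700 and 364100 TPM in vehicle B. Because TPM share a fixed total, nuclear genes read slightly lower in vehicle B on this scale. The difference between batches was therefore tested on counts, not on TPM.

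Astrocyte markers were expressed only in part. Of 18 astrocyte markers 10 were expressed (55.6%), 5 were low and 3 were undetected, with a median of 2.80 TPM. VIM ranged from 2922 to 3045 TPM (median 2980), the hyaluronan receptor CD44 from 856 to 955 TPM (median 918) and the secreted chitinase-like protein CHI3L1 from 650 to 752 TPM (median 710). The gap junction protein GJA1 (connexin 43) ranged from 185 to 198 TPM (median 193). These genes were far above 1 TPM in every library, and vehicle A and vehicle B overlapped for CD44, CHI3L1 and GJA1 but not for VIM, whose 3 vehicle A libraries were the higher ones on the TPM scale. With TMM-scaled CPM the order of VIM turned, with 4855, 4777 and 4776 CPM in vehicle A and 4904, 4899 and 4887 CPM in vehicle B. The gliogenic transcription factor SOX9 had 67.7 ± 4.45 TPM, glutamine synthetase GLUL 15.3 ± 0.508 TPM, the aldolase ALDOC 8.70 ± 0.726 TPM and the glutamate carrier SLC1A3 (GLAST) 4.74 ± 0.212 TPM.

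GFAP, on chromosome 17 of GRCh38 from 44903159 to 44916937, had between 0 and 6 counts in a library and at most 0.0635 TPM (median 0.0234). The main forebrain glutamate carrier SLC1A2 (GLT-1) had 3 to 14 counts and at most 0.0784 TPM. The folate enzyme ALDH1L1 had 0 to 4 counts, and NDRG2, a gene of mature astrocytes, likewise 0 to 4. For the calcium-binding protein S100B no library had more than 3 counts, for the water channel AQP4 none had more than 1, and the connexin gene GJB6 had 0 in all 6. These 7 markers, GFAP among them, were thus at or near 0 in all libraries of both batches, while SLC1A3, GLUL and ALDOC were expressed in each. In RNA from a whole culture, few cells with many transcripts and many cells with few cannot be told apart.

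**Figure D1:**
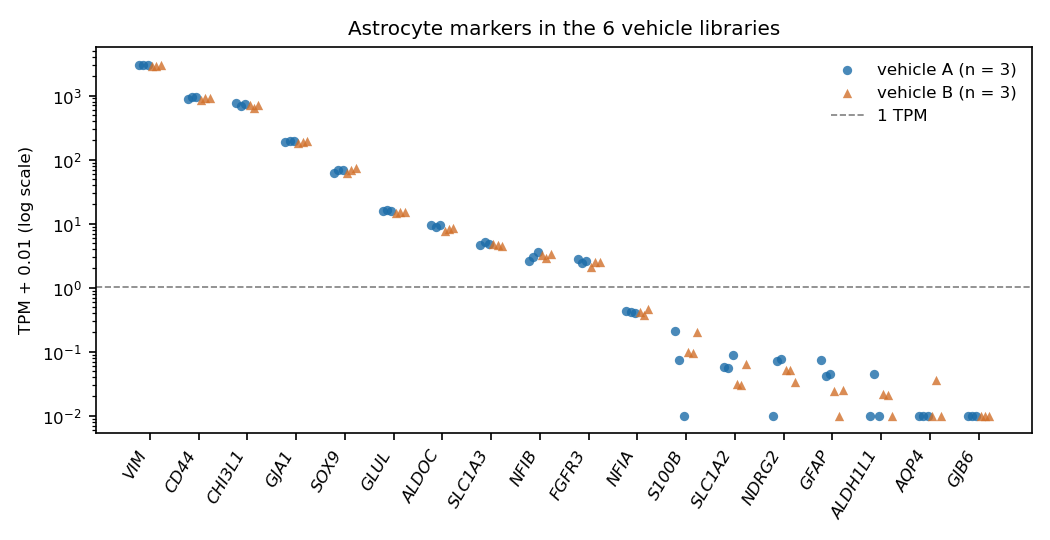
Level of each of the 18 astrocyte markers in the 6 vehicle libraries, as TPM plus 0.01 on a log axis, with circles for vehicle A, triangles for vehicle B and a dashed line at 1 TPM. Each gene's 6 points lie close together for the 10 expressed markers, and GFAP, SLC1A2, NDRG2, ALDH1L1, S100B, AQP4 and GJB6 lie below 0.3 TPM in all libraries.

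The sequence before the transcription start is shown for 4 genes, because expressed and undetected genes differed in how many CpG dinucleotides it held. TGFBI is an abundant secreted matrix protein with an entry in the RefSeq promoter table, AQP4 and GJB6 were undetected astrocyte markers, and GJA1, added after its value was seen, is the expressed connexin set against GJB6. S100B had no entry. Each run is the 250 bases before the RefSeq start on GRCh38.p14, written 5′ to 3′ on the gene's own strand, with CG in capitals. The windows are chr5:136028738-136028987 (plus strand) for TGFBI, chr6:121435396-121435645 (plus) for GJA1, chr18:26865804-26866053 (minus) for AQP4 and chr13:20230979-20231228 (minus) for GJB6, the last of which lies inside the span that GENCODE gives for the gene.
TGFBI: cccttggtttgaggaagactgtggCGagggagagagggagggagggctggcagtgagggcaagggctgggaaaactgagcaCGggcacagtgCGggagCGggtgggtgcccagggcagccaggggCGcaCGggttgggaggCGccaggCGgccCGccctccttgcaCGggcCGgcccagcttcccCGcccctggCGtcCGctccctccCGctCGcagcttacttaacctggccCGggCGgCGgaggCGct
GJA1: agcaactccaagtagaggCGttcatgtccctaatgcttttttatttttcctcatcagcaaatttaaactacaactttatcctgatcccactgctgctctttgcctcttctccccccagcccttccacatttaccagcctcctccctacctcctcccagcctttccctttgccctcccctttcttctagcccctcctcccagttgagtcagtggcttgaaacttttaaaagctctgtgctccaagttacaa
AQP4: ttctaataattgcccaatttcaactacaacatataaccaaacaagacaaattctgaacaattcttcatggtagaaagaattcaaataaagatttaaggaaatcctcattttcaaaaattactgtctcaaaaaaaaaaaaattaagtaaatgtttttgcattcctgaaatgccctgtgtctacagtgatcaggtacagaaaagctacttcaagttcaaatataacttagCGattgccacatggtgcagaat
GJB6: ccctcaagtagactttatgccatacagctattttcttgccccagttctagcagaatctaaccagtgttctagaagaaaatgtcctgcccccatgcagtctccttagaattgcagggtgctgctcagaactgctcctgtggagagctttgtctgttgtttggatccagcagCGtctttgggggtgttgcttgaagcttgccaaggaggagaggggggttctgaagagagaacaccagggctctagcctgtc

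The window of TGFBI held 20 CpG and those of GJA1, AQP4 and GJB6 held 1 each, so the expressed GJA1 resembled the undetected markers and not TGFBI. With the 50 bases after the start included, the 4 promoters had 27, 3, 2 and 2 CpG. Of all protein-coding genes, 15226 had such a window. Its median CpG count was 26 for 8651 expressed genes with a mean below 100 TPM (quartiles 19 and 34), 28 for 939 expressed genes at 100 TPM or more, 16 for 2031 low genes and 5 for 3605 undetected genes (quartiles 2 and 16), beside 22 over all. The letters TATAAA, or TTTATA for the other strand, stood in the 50 bases before the start in 1.67% of expressed genes below 100 TPM, 4.37% of those at 100 TPM or more, 5.61% of low and 10.6% of undetected genes, beside 4.48% of all. In the 4 windows printed above neither form was found.

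Markers of other neural lineages were sparse. Of 12 neural stem and progenitor markers 5 were expressed: the Notch target HES1 (50.6 ± 2.60 TPM), its receptor NOTCH1 (17.8 ± 1.06), the RNA-binding MSI2 (7.75 ± 0.427) and, at lower levels, the filament gene NES (4.00 ± 0.543) and PAX6 (1.497 ± 0.172). SOX2, SOX1, FABP7, PROM1 and HES5 were among the 6 undetected, and SOX2 had at most 1 count. Of 13 oligodendrocyte lineage markers 5 were expressed, led by the proteoglycan CSPG4 (70.4 ± 2.53 TPM) and the phosphodiesterase CNP (57.8 ± 3.42), with MYRF at 8.61 ± 0.376 and the receptor PDGFRA at 6.55 ± 0.461. The transcription factors OLIG1, OLIG2, SOX10 and NKX2-2 and the genes BCAS1, MAG and MOG were undetected. Of 17 neuron markers 5 were expressed, with the tubulin TUBB3 at 44.7 ± 1.96 TPM, the synaptic proteins SYT1 at 8.75 ± 0.646 and SNAP25 at 4.44 ± 0.149 and the neurofilament NEFL at 2.43 ± 0.341, while NEFH, STMN2, GAD2, ELAVL4, DCX and SLC17A6 were undetected.

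The mesenchymal list stood out by its counts: all 19 of its genes were expressed, with a median of 55.7 TPM. TGFBI ranged from 1812 to 2126 TPM (median 1978), the matrix glycoprotein SPARC from 1532 to 1728 (median 1646), the collagen chain COL1A1 from 1275 to 1385 (median 1337) and fibronectin FN1 from 763 to 919 (median 867). All 4 were among the high levels of the transcriptome in each library. The list's summed level of 6787 to 7479 TPM exceeded that of the astrocyte list, 4767 to 5048 TPM, of which VIM alone made up 60.9%. Of 11 pericyte and smooth muscle markers 9 were expressed (81.8%), among them the contractile genes MYL9 (270 ± 14.1 TPM), TAGLN (133 ± 6.72) and ACTA2 (56.8 ± 3.49) and the receptor PDGFRB (33.7 ± 1.23), and desmin DES was undetected.

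Markers of blood, vessel and surface epithelium were mostly absent. Among 12 microglia and macrophage markers CD68, a protein of lysosomes, had 280 ± 14.1 TPM and 98.3% of the list's summed level, and CSF1R (2.22 ± 0.153) and PTPRC (2.05 ± 0.171) were the only others expressed, with CD14 low at 0.463 ± 0.232. CX3CR1, C1QA, C1QB, AIF1, P2RY12 and TYROBP were undetected. Of 9 endothelial markers the VEGF receptor KDR alone was expressed (17.0 ± 1.55 TPM), TEK (0.853 ± 0.132), PECAM1 (0.426 ± 0.0941) and TIE1 (0.320 ± 0.0766) were low, and CLDN5 and CDH5 were undetected. Of 13 epithelial markers 4 were expressed, namely KRT18 (124 ± 9.45 TPM), KRT8 (7.18 ± 0.576), MUC1 (6.32 ± 0.884) and CLDN4 (1.71 ± 0.170), while EPCAM, KRT5, CDH1, ESRP1 and GRHL2 were undetected. Of 10 melanocyte and neural crest markers the transcription factors TFAP2A (34.8 ± 1.34 TPM) and MITF (11.3 ± 0.969) were expressed, NGFR (1.06 ± 0.319) and MLANA (0.563 ± 0.264) were low, and TYR and TFAP2B were undetected.

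None of 6 pluripotency genes was expressed: POU5F1 (0.402 ± 0.0817 TPM) and SALL4 (0.346 ± 0.0560) were low and NANOG, LIN28A, DPPA4 and ZFP42 undetected. Of 18 genes restricted to blood, liver, muscle, pancreas, thyroid, retina or testis 17 were undetected (among them HBA1, HBB, CD3E, MS4A1, ALB, APOA1, ACTN3, MYH6, MYH7, INS, GCG, PRSS1, PRM1 and PRM2), and thyroglobulin TG was low. Over all lineage lists 63 of 158 genes (39.9%) were expressed, beside 59.6% of protein-coding genes.

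Of 18 brain patterning genes 5 were expressed (27.8%). The forebrain homeobox genes DLX2 and DLX1 had 19.7 ± 0.906 and 15.6 ± 1.06 TPM. PAX8 had 4.14 ± 0.270 TPM and OTX1 1.57 ± 0.210, with EMX1, EMX2, OTX2, PAX2, PAX5, SIX3, NKX2-1 and LMX1A undetected.

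HOX genes, which mark position along the body axis behind the midbrain, were expressed in larger part. Of 39 HOX genes 31 were expressed, 5 low and 3 undetected (HOXB1, HOXC12 and HOXD12). Cluster A had 9 of 11 expressed, cluster B 9 of 10, cluster C 7 of 9 and cluster D 6 of 9. HOXC10 was the highest with 37.8 to 45.3 TPM (median 42.3), and HOXB4 followed with 39.1 ± 1.85, HOXC13 with 26.3 ± 0.617, HOXB3 with 24.5 ± 0.638, HOXB7 with 24.5 ± 1.13 and HOXA9 with 24.3 ± 1.80. HOXC10 and HOXB4 lay within their spread of each other, as did HOXB3, HOXB7 and HOXA9. Other leading members of each cluster were HOXA10 (14.01 ± 0.630 TPM), HOXA4 (7.70 ± 0.843), HOXC9 (15.1 ± 0.711), HOXD8 (12.9 ± 0.775), HOXD10 (3.49 ± 0.457) and HOXD11 (2.87 ± 0.441). Genes of both the front and the rear end of the clusters were therefore expressed together, with low members between them such as HOXA6 (0.442 ± 0.159 TPM).

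**Figure D2:**
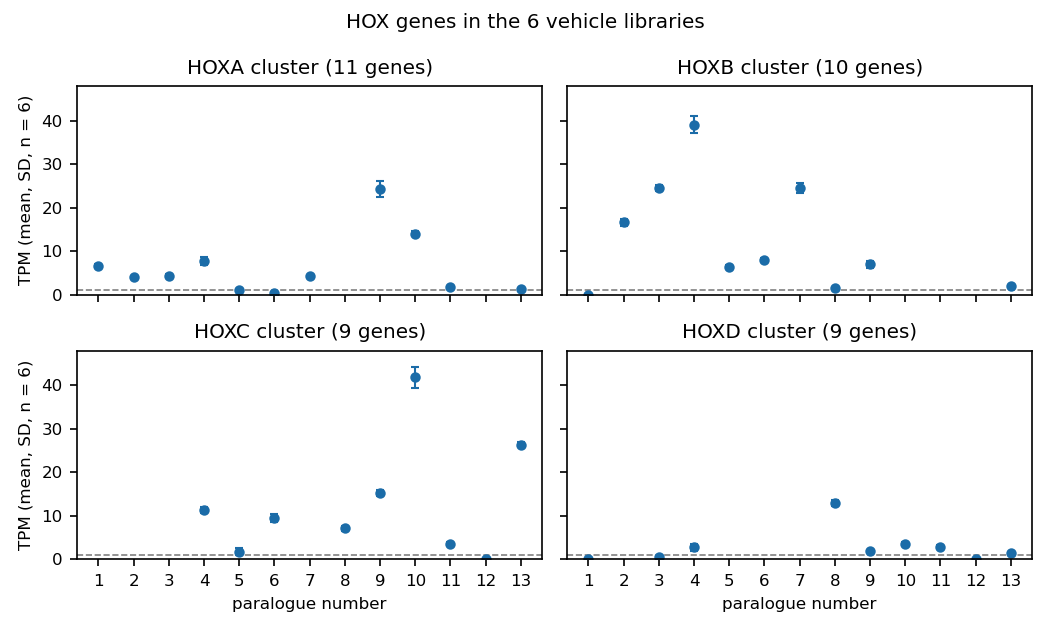
Mean TPM with SD over the 6 vehicle libraries for each HOX gene, by paralogue number along the horizontal axis and by cluster in 4 panels that share one linear axis, with a dashed line at 1 TPM. HOXC10, HOXB4 and HOXC13 stand highest, and HOXB1, HOXC12 and HOXD12 lie at 0.

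Of 19 SOX genes 6 were expressed, led by SOX9 (67.7 ± 4.45 TPM), SOX4 (67.6 ± 5.08) and SOX7 (24.3 ± 0.980). Of 9 PAX genes PAX8, PAX3 (3.06 ± 0.227 TPM) and PAX6 were expressed. Zinc finger genes were expressed broadly, 422 of 508, though at a median of only 4.29 TPM, with ZNF358 (133 ± 4.53), ZNF503 (89.9 ± 2.53) and ZNF146 (77.3 ± 2.02) at the top. Of 20 genes often altered in glioma 17 were expressed. They included the growth factor receptor MET (356 ± 22.7 TPM), the cell cycle inhibitor gene CDKN2A (191 ± 8.19), the cyclin CCND1 (139 ± 12.7), its kinase CDK4 (127 ± 4.22), EGFR (68.4 ± 5.42) and IDH1 (30.5 ± 2.14). The DNA repair gene MGMT was low with 8 to 18 counts and at most 0.328 TPM, the telomerase gene TERT was low at 0.690 to 1.00 TPM, and the cyclin CCND2 was undetected. Gene level counts say nothing of mutations in these genes.

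Of the receptor genes, nuclear receptors included, 169 of 350 (48.3%) were expressed, with a median of 1.04 TPM. Of 26 integrin subunits 16 were expressed. ITGA5, a subunit of the fibronectin receptor, ranged from 520 to 573 TPM (median 555), ITGA3 had 513 ± 22.2, the common partner ITGB1 374 ± 15.8 and the collagen-binding ITGA2 93.9 ± 7.48, while the leukocyte subunit ITGAL was undetected. Of 58 receptor tyrosine kinases 29 were expressed. AXL, a receptor for GAS6, ranged from 444 to 519 TPM (median 464), MET, the receptor of hepatocyte growth factor, from 323 to 385 (median 360), and the ephrin receptors EPHA2 and EPHB4 had 210 ± 8.56 and 68.6 ± 3.72. AXL was above MET in every library, and the neurotrophin receptor NTRK2 was undetected.

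Receptors of cytokines were among the more complete lists, with 33 of 47 expressed (70.2%). TNFRSF12A, the receptor of TWEAK, had 383 ± 34.3 TPM, the TNF receptor TNFRSF1A 199 ± 2.85, the shared interleukin 6 family subunit IL6ST 135 ± 12.03 and the decoy receptor IL13RA2 124 ± 5.55, and TLR2 was undetected. Of 14 TGF-beta family receptors 10 were expressed, with endoglin ENG at 275 ± 10.1 TPM, TGFBR2 at 37.1 ± 0.748, TGFBR1 at 31.8 ± 1.41 and BMPR2 at 19.8 ± 2.12. Of 19 Notch, Wnt and Hedgehog receptors 16 were expressed, led by NOTCH2 (87.6 ± 8.06 TPM) and the Wnt receptors FZD2 (32.6 ± 1.66), FZD1 (32.4 ± 0.947) and FZD6 (19.8 ± 0.980). Of 48 nuclear receptors 24 were expressed, with the clock repressor NR1D1 at 118 ± 4.80 TPM, NR2F1 at 99.3 ± 3.06, PPARD at 86.8 ± 1.59 and the glucocorticoid receptor NR3C1 at 79.3 ± 5.20.

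Glutamate receptors were expressed in 2 of 24 cases, GRIA3 (7.36 ± 0.815 TPM) and GRIK2 (6.36 ± 0.325), both subunits of ion channels. GRIA1 (1.06 ± 0.1103) and GRIN2D (0.491 ± 0.0563) were low, 11 were undetected, and among these were the astrocytic metabotropic receptors GRM3 and GRM5. Of 20 GABA receptor genes 4 were expressed, GABRE (12.2 ± 0.507 TPM), GABRA3 (11.6 ± 0.525), GABBR1 (9.66 ± 0.267) and GABRQ (1.86 ± 0.253), and 12 were undetected. Of 48 receptors for serotonin, dopamine, noradrenaline, histamine and acetylcholine 12 were expressed. The histamine receptor HRH1 led with 21.3 to 23.3 TPM (median 22.1), and the serotonin receptor HTR7 (15.3 ± 0.790) and the adrenergic receptor ADRA1D (7.72 ± 0.339) were also expressed. Of 46 receptors for purines, lipids, proteases and vasoactive peptides 23 were expressed, with the thrombin receptor F2R at 65.5 ± 3.31 TPM, the lysophosphatidic acid receptor LPAR1 at 44.7 ± 2.37, the bradykinin receptor BDKRB1 at 43.1 ± 1.97 and the adenosine receptor ADORA2B at 39.5 ± 1.78.

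**Figure D3:**
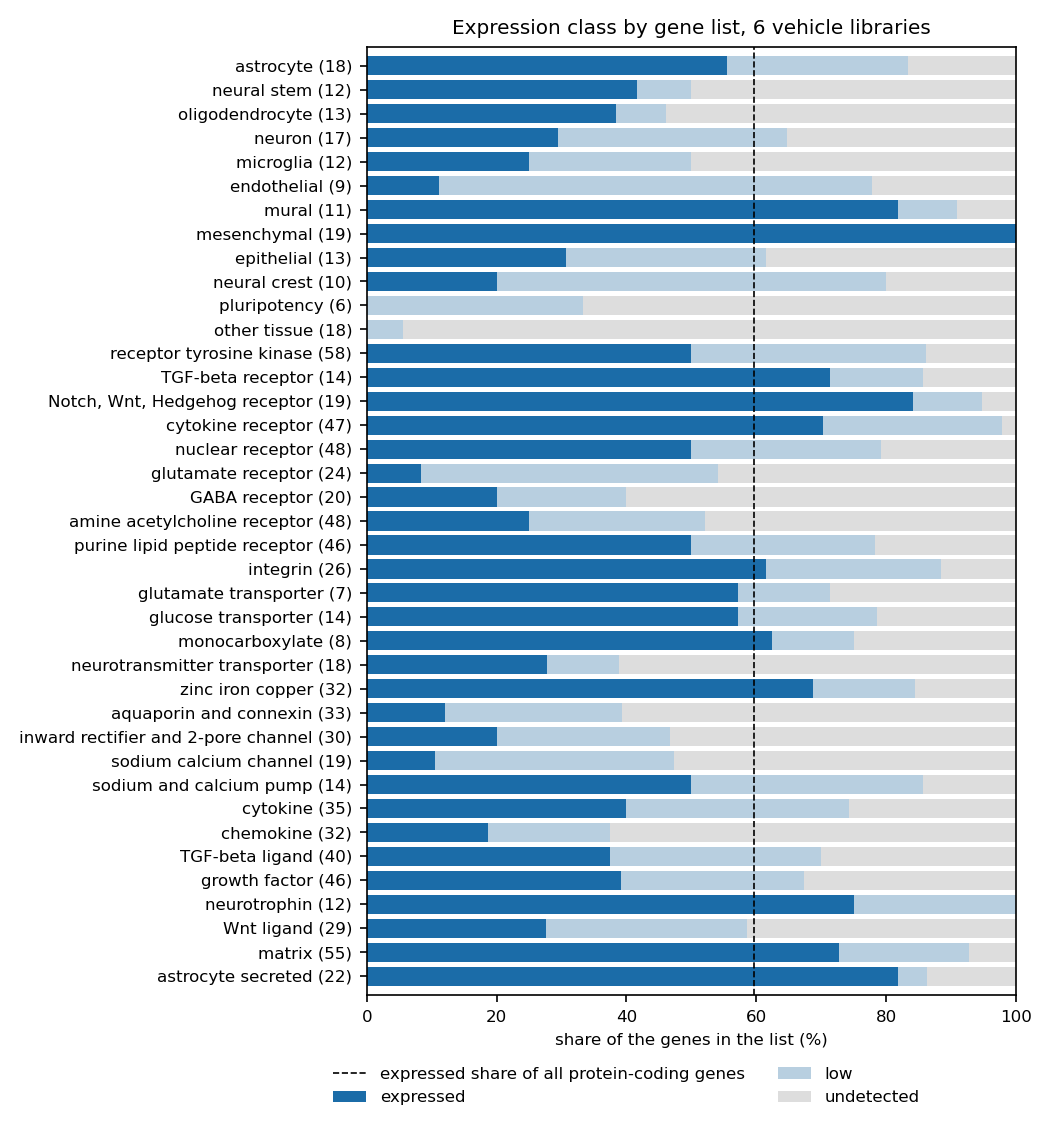
Share of each gene list that was expressed, low or undetected in the 6 vehicle libraries, in percent, with the number of genes in brackets and a dashed line at the 59.6% expressed over all protein-coding genes. The mesenchymal list reaches 100% and the pluripotency and other tissue lists have no expressed gene.

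Transporters and channels were a narrower set, with 63 of 175 genes expressed (36.0%) and a median of 0.130 TPM. Of 7 SLC1 carriers 4 were expressed. SLC1A5, which exchanges glutamine and other neutral amino acids, ranged from 292 to 316 TPM (median 300), and the remaining 3 were SLC1A1 (22.8 ± 1.57), SLC1A4 (16.0 ± 0.544) and SLC1A3. The glutamine exchanger was thus far above the astrocytic glutamate carriers SLC1A3 and SLC1A2 in every library, although the level of SLC1A3 was 17.0 TPM when the canonical transcript set its length. Glucose carriers were led by SLC2A1 (94.6 ± 3.28 TPM), with SLC2A6 at 18.5 ± 1.73, SLC2A8 at 17.5 ± 1.08 and SLC2A3 at 15.7 ± 0.628, and 8 of 14 were expressed. For lactate and related acids 5 of 8 genes were expressed, among them the chaperone BSG (393 ± 23.5 TPM), the lactate carriers SLC16A3 (106 ± 7.84) and SLC16A1 (70.2 ± 2.28) and SLC16A7 (11.5 ± 1.29).

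Carriers of transmitters and related compounds were expressed in 5 of 18 cases. These were the creatine carrier SLC6A8 (66.3 ± 2.07 TPM), the taurine carrier SLC6A6 (33.4 ± 2.08), the glycine carrier SLC6A9 (28.4 ± 2.16), SLC29A4 (3.35 ± 0.177) and SLC22A3 (2.95 ± 0.268), and 11 were undetected. Of 32 metal carriers 22 were expressed, with the transferrin receptor TFRC at 209 ± 7.79 TPM and the zinc importers SLC39A7, SLC39A1 and SLC39A6 at 204 ± 8.71, 118 ± 5.13 and 86.8 ± 2.48. Of 33 aquaporins and connexins 4 were expressed, among them GJA1, GJC1 (20.2 ± 1.24 TPM) and AQP11 (5.02 ± 0.409), and GJA1 held 86.0% of the summed level. Of 30 inwardly rectifying and 2-pore potassium channels 6 were expressed, at most KCNK6 (5.28 ± 0.587 TPM), KCNK2 (4.60 ± 0.380), KCNJ8 (2.76 ± 0.254) and KCNJ15 (2.67 ± 0.226), and the astrocytic channel KCNJ10 was low and its partner KCNJ16 undetected.

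Of 19 pore subunits of voltage-gated sodium and calcium channels CACNA1C (3.87 ± 0.288 TPM) and SCN3A (2.80 ± 0.225) were expressed, and SCN9A (1.06 ± 0.147) and CACNA1G (1.04 ± 0.0893) fell just short of 1 TPM in at least 1 library. Of 14 sodium-potassium and calcium pump genes 7 were expressed, including ATP1B3 (151 ± 6.60 TPM), ATP2A2 (99.3 ± 5.09) and ATP2B4 (85.4 ± 5.83). By family, 178 of 337 solute carriers were expressed, and mitochondrial carriers more often, 39 of 48, with the ADP/ATP carriers SLC25A6 (749 ± 39.7 TPM) and SLC25A5 (615 ± 27.7) ahead of SLC25A39 (142 ± 5.77). Of 95 potassium channel subunits 17 were expressed, the calcium-activated KCNN4 (15.4 ± 1.63 TPM) and KCNMA1 (11.3 ± 0.572) and the silent subunit KCNG1 (8.16 ± 0.310) being the highest.

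Secreted factors included some of the most abundant transcripts of the line. Of 268 genes 126 were expressed (47.0%), with a median of 0.951 TPM. TIMP1, an inhibitor of metalloproteinases, ranged from 1613 to 1984 TPM (median 1837). Among 22 proteins that astrocytes are known to secrete 18 were expressed (81.8%), with TIMP1, SPARC and CHI3L1 among the highest, and LCN2, SPARCL1 and CP were undetected. Of 55 matrix glycoproteins and proteoglycans 40 were expressed, with TGFBI, SPARC, FN1 and thrombospondin THBS1 (681 ± 53.0 TPM) at the top. The brain-typical lecticans BCAN and NCAN and the tenascin TNR were undetected, while tenascin TNC was expressed.

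Of 35 cytokines 14 were expressed. MIF had 894 ± 100 TPM, the macrophage growth factor CSF1 127 to 141 (median 135), IL11 78.6 to 88.5 (median 82.9) and CLCF1 37.6 ± 1.18, and TNF and IFNB1 were undetected. MIF and CSF1 held the first and second place in all 6 libraries, and MIF had the wider spread. Of 32 chemokines 6 were expressed, CXCL16 (25.2 ± 0.933 TPM), the monocyte attractant CCL2 (17.3 ± 1.03), CCL26 (12.9 ± 1.78), CXCL12 (7.62 ± 0.317), CXCL8 (3.53 ± 0.575) and CCL5 (3.12 ± 0.976), and 20 were undetected. Of 40 ligands and antagonists of the TGF-beta family 15 were expressed, with TGFB1 at 482 to 534 TPM (median 519), FSTL1 at 138 ± 4.56, the procollagen protease BMP1 at 109 ± 4.34 and FSTL3 at 100 ± 3.64.

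Growth factors were expressed in 18 of 46 cases, with the lymphangiogenic VEGFC at 114 ± 4.66 TPM, FGF2 at 107 ± 7.57, VEGFB at 82.9 ± 2.32 and VEGFA at 60.7 ± 1.63, and IGF1 and AREG were undetected. VEGFC and FGF2 lay within their spread of each other. Of 12 neurotrophic factors 9 were expressed, MANF (221 ± 20.9 TPM), midkine MDK (31.5 ± 0.850), BDNF (21.9 ± 1.36) and pleiotrophin PTN (5.27 ± 0.856) being the highest. Of 29 Wnt ligands and secreted inhibitors 8 were expressed, and inhibitors led: DKK1 had 448 to 483 TPM (median 466), SFRP1 151 ± 5.39, SFRP2 82.7 ± 1.59 and DKK3 58.3 ± 2.91, the last within the spread of the ligand WNT5A with 56.6 ± 3.97.

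Of 410 olfactory receptor genes 404 were undetected and 0 expressed, the highest being OR4F3, OR4F21 and OR7D2 with means of 0.580, 0.563 and 0.412 TPM. All 40 beta-defensins were undetected, with DEFB125 the only one that had any count. Of 13 interferon alpha genes 12 were undetected and IFNA1 was low at 0.626 ± 0.349 TPM. Of 94 keratin-associated protein genes 91 were undetected, but KRTAP2-3 (11.9 ± 1.14 TPM) and KRTAP1-5 (3.64 ± 0.492) were expressed, and KRTAP1-1 was low. Of 27 taste receptors TAS2R14 alone was expressed (1.47 ± 0.216 TPM). These families hold closely similar genes among which RSEM divides reads, so the level of single members is uncertain.

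Some tissue-restricted genes were nonetheless present. Of 55 keratins 8 were expressed, including KRT7 with 473 to 550 TPM (median 499), the hair keratin KRT81 with 180 ± 8.64 and KRT18, so that KRT7 was above the median of the reference genes in part of the libraries, while 38 keratins were undetected. Of 26 MAGE A to C genes, which normal adult tissue uses mainly in testis, 5 were expressed, with MAGEA3 at 31.9 ± 3.13 TPM, MAGEA12 at 21.3 ± 1.94 and MAGEA6 at 20.5 ± 1.99, again close copies of each other. Of 53 clustered protocadherins, neuronal adhesion proteins whose isoforms share exons within a cluster, 25 were expressed, and PCDHGC3 (358 ± 7.66 TPM) was far above PCDHGC5 (38.9 ± 1.80) and PCDHGB2 (27.9 ± 1.40). Ribosomal proteins were expressed in 81 of 83 cases, with RPS2 (2199 ± 98.5 TPM), RPS12 (1585 ± 190) and RPL41 (1511 ± 122) at the top. Mitochondrial genes were led by MT-CO2 (57910 ± 3341 TPM), MT-CO1 (47920 ± 2037) and MT-ND4 (36740 ± 2977).

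The 6 libraries were close to each other. On the scale of log2(TPM + 1) over expressed genes, Pearson's r was 0.9959 to 0.998 for 6 pairs within a batch and 0.9954 to 0.998 for 9 pairs across batches, a description over genes that share the same libraries. The median absolute difference was 0.063 to 0.095 on the log2 scale within and 0.073 to 0.109 across batches. Of expressed genes, 0.154% to 0.403% against 0.257% to 0.497% differed by more than 1.5-fold. Across batches these TPM differences include the slightly lower reading of nuclear genes in vehicle B. The chi-square per degree of freedom was 2.86 to 7.09 within and 3.12 to 10.0 across batches, above sampling noise in every pair, and no pair looked like 1 library deposited under 2 names. The median coefficient of variation of expressed genes was 4.91% in vehicle A and 5.26% in vehicle B. Vehicle A alone gave 11804 expressed genes and vehicle B alone 11744.

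Vehicle B was compared with vehicle A as a check of reproducibility. Under edgeR's quasi-likelihood test with Benjamini-Hochberg adjustment 0 of 13001 protein-coding genes (0%) passed an adjusted p of 0.05 together with a 1.5-fold change, and 0 passed at any fold. An unadjusted p under 0.05 was reached by 371 genes, and DESeq2 likewise called 0, with 127 genes at an unadjusted p under 0.05. The median absolute log2 fold change was 0.046, and 99.2% of genes lay within 1.5-fold. No member of the lineage, receptor, transporter or secreted lists was called.

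A fit with the replicate number as a block is also given, because same-numbered libraries deviated alike in these same data. The labels give no pairing, so the blocked p-values rest on a feature seen in the libraries they test. With this block 17 of 13001 genes were called (0.131%), 10 higher (0.0769%) and 7 lower (0.0538%) in vehicle B. RGPD5 was the only one of them whose mean reached 100 normalized counts. It had 3.82, 2.64 and 2.24 CPM in vehicle A and 12.9, 13.0 and 5.39 in vehicle B, so the groups did not overlap, and edgeR's blocked fit put it 1.85 higher on the log2 scale (SE 0.135, adjusted p = 6.11e-11), against 1.85 (SE 0.309, adjusted p = 0.291) without the block. RGPD5 is one of several near-identical genes on chromosome 2, and how RSEM divided reads among them was not tested. From the lists, the adenosine receptor ADORA2A (0.452 ± 0.247 against 1.22 ± 0.493 CPM, n = 3) and the calcium channel CACNA1H (0.189 ± 0.143 against 0.592 ± 0.112 CPM) were called higher, both at low levels. They were 1 of 214 receptor and 1 of 80 transporter genes tested. At any fold the blocked fit gave 478 genes (3.68%), with each of the 13 mitochondrial genes higher in vehicle B and 55 of 81 ribosomal protein genes among them. The median log2 fold change over all 81 was -0.08.

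The mitochondrial genes, singled out after their values were seen, differed between the vehicles as a group. Their sum was 92185, 93398 and 94205 CPM in vehicle A and 105520, 107950 and 108720 CPM in vehicle B, without overlap. MT-CO1 had a log2 fold change of 0.18 (SE 0.025), MT-ND4 of 0.26 (SE 0.035) and MT-ATP6 of 0.26 (SE 0.035), each with an adjusted p of 0.119 in edgeR's fit without the block. The 13 genes share 1 small genome and are not independent of each other.

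Libraries with the same number deviated alike in both batches, and transcript length moved with it. Among genes whose canonical transcript was under 1 kb (699 genes), replicate 1 lay above its group mean by a median of 0.085 (log2) in vehicle A and 0.086 in vehicle B, and replicate 3 deviated by -0.094 and -0.090. Among 1208 genes over 8 kb the signs turned, with -0.084 and -0.087 for replicate 1 and 0.070 and 0.069 for replicate 3, and replicate 2 stayed within 0.024 of 0 in every class. S100A6, a short gene, had 939, 752 and 649 CPM in vehicle A and 858, 681 and 604 CPM in vehicle B. The summed ribosomal protein genes followed with 32923, 30892 and 28494 against 31226, 29385 and 27149 CPM. In each case replicate 1 was the highest and replicate 3 the lowest library of its batch. What same-numbered libraries share beyond the number is not given in the sources used here and was not tested.

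**Figure D4:**
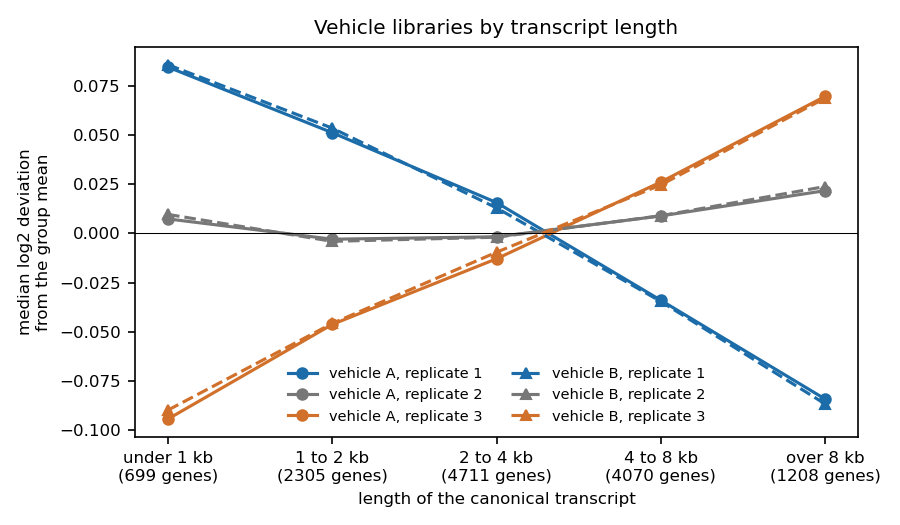
Median log2 deviation of each vehicle library from the mean of its group of 3, by length class of the canonical transcript, with solid lines and circles for vehicle A and dashed lines and triangles for vehicle B. Same-numbered libraries of the 2 batches lie almost on each other, from 0.085 and 0.086 for replicate 1 under 1 kb to -0.084 and -0.087 over 8 kb.

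The widest spread among genes with at least 100 normalized counts was found in ENSG00000254692, CDRT4 and ENSG00000259316, with coefficients of variation within batches of 51.2%, 47.2% and 43.4%. No list member was among them. The Ensembl identifiers without a symbol have the biotype protein-coding in GENCODE.

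The high doses changed many of the list members. High-dose WESF was compared with vehicle A and high-dose EESF with vehicle B, which share no library. With WESF 3158 of 13129 genes (24.1%) were called, 11.1% higher and 13% lower, and with EESF 2276 of 13092 (17.4%), 8.21% higher and 9.17% lower. At any fold the adjusted p was under 0.05 for 68.9% and 58% of the genes tested. Receptor genes were called lower more often than higher, 53 against 26 of 214 with WESF and 42 against 20 of 213 with EESF, with medians of -0.19 and -0.13 (log2) beside 0.00082 and 0.0070 over all genes tested. Secreted genes went 40 higher and 18 lower of 164 with WESF and 38 higher and 23 lower of 164 with EESF. Transporters went 16 higher and 15 lower of 80, and 9 higher and 17 lower of 82, and lineage markers 9 higher and 24 lower of 74, and 6 higher and 18 lower of 75.

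The genes named next had the 3 largest rises or the 3 largest falls of a comparison among called list members that were expressed in the vehicle. Larger rises occurred outside this set, up to 5.56 with WESF and 4.82 with EESF on the log2 scale over all genes tested. CXCL8, a neutrophil attractant, had 2.57, 3.15 and 3.29 CPM in vehicle A and 64.3, 71.7 and 67.7 with WESF, a log2 fold change of 4.50 (SE 0.082), and 2.69, 2.23 and 3.27 CPM in vehicle B against 22.4, 19.9 and 23.9 with EESF, a log2 fold change of 3.02 (SE 0.12). The interleukin IL1B rose by 2.97 (SE 0.087) and 2.31 (SE 0.089), and the activin subunit INHBA by 2.18 (SE 0.046) with WESF. KCNJ14, an inward rectifier, rose by 1.64 (SE 0.13) with EESF. The integrin subunit ITGB8 had 44.6, 48.2 and 56.4 CPM in vehicle A and 4.78, 4.82 and 5.53 with WESF, and 45.4, 49.0 and 55.0 CPM in vehicle B against 5.33, 5.54 and 5.13 with EESF, log2 fold changes of -3.30 (SE 0.099) and -3.22 (SE 0.088). The serotonin receptor HTR2A fell by 3.79 and 2.88 on the log2 scale, the ephrin receptor EPHA3 by 2.36 with WESF and PTPRC by 2.38 with EESF. All these calls had an adjusted p of at most 5.85e-07 in edgeR's test, and vehicle and treated libraries did not overlap for any of them.

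**Figure D5:**
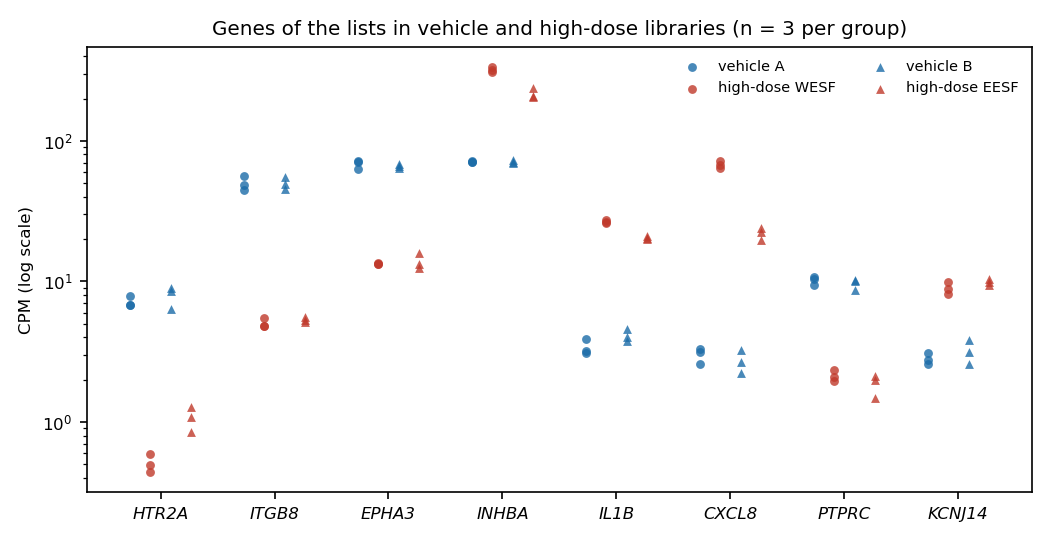
CPM of 8 list genes on a log axis in the 3 libraries each of vehicle A and high-dose WESF (circles) and of vehicle B and high-dose EESF (triangles), with vehicle in blue and treated libraries in red. The 2 vehicles overlap for each gene, and the treated libraries lie apart from them, above for INHBA, IL1B, CXCL8 and KCNJ14 and below for HTR2A, ITGB8, EPHA3 and PTPRC.

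Among further members of the lists and families the response was uneven. VIM had log2 fold changes of -0.0082 (adjusted p = 0.875 in edgeR's test) and 0.10 (adjusted p = 0.0857). The astrocyte markers SLC1A3, SOX9 and FGFR3 were called lower and ALDOC higher in both comparisons, and CD44 was called lower with WESF at -0.72 (SE 0.045) and had -0.48 (SE 0.050) with EESF. SLC1A3 had log2 fold changes of -1.62 (SE 0.069) and -1.39 (SE 0.071). Of the clustered protocadherins 24 of 34 tested were called lower with WESF, by -0.59 to -1.99, and 28 of 32 with EESF, by -0.60 to -1.52, and 0 were called higher, although their shared exons make the members dependent on each other. The share called was 70.6% and 87.5% of these protocadherins, beside 24.1% and 17.4% of all genes tested with WESF and EESF. HOX genes had 2 higher and 6 lower of 33 tested with WESF (24.2%), near the share over all genes. With EESF they had 2 higher and 1 lower of 34 (8.82%), below that share. Of 81 ribosomal protein genes 0 were called in either comparison.

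Few of the silent genes reached the level of expressed genes with a high dose, and smaller rises were not counted. Of the 5014 genes undetected in the vehicle, 2 reached 1 TPM in all 3 libraries of high-dose WESF and 1 in those of high-dose EESF. The metallothionein MT1A, with at most 3 counts in a vehicle library, had 2.53 ± 1.08 TPM with WESF and 1.42 ± 0.324 with EESF (n = 3), and ENSG00000272647 had 2.01 ± 1.23 TPM with WESF. MT1A belongs to a family of near-identical genes, and reads of its relatives may be counted to it, which was not tested. The undetected astrocyte markers S100B, AQP4 and GJB6 were not among them.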

How the data were processed

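RNA from SW1783 cultures was sequenced as paired-end reads from a directional library kit. Per the study's methods and the submitters' processing notes, the authors checked reads with FastQC 0.11.9, trimmed them with Trim Galore 0.6.6, aligned them to GRCh38 with STAR 2.7.9a and counted them with RSEM 1.3.3 on an Ensembl release 84 annotation. The deposited table holds expected counts, estimated by the authors with RSEM for each gene in 24 libraries without a filter or normalization, and RSEM's strand setting is not given in the sources used here. RSEM divides reads that match several genes, and 10.9% of the values are not whole.

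Expected counts were rounded. Of 60675 genes, 56558 were matched by Ensembl identifier to GENCODE release 44 (GRCh38), which gave symbols, positions and lengths, and 19586 are protein-coding. Genes outside that release held 0.142% of the vehicle counts. TPM were computed from counts divided by the total exon length of a gene. Comparisons used edgeR 4.0.16 in R 4.3.3 (TMM normalization, filterByExpr, 2-group quasi-likelihood test, 2-sided, Benjamini-Hochberg adjustment), with calls at an adjusted p under 0.05 and a fold beyond 1.5, and CPM are scaled by TMM. DESeq2 1.42.0, the tool of the study's methods, was an alternative. On simulated data made from vehicle B against vehicle A (12920 genes tested), edgeR recovered 96 of 99 genes changed 2-fold and 100 of 100 changed 4-fold, with 4 false among 200 calls. The simulation gave all genes the same spread beyond sampling noise and held no effect of replicate number or transcript length. Recovery of genes with a wider spread was therefore not tested.

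The deviations of same-numbered vehicle libraries correlated across batches (r = 0.39, 0.19 and 0.28 over genes), each best with its own number, so a blocked fit is given beside the vehicle comparison. The labels number the replicates and say nothing of a shared day.

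The libraries and the 42 gene lists (973 symbols) and 20 families were chosen with earlier results of these data known, and list counts are descriptions. Named genes were the 10 most abundant apart from mitochondrial DNA and ribosomal proteins, the 4 highest of each list and 3 highest of each family, all undetected lineage markers, the 3 largest rises and falls with each high dose among called list members expressed in the vehicle, and the genes with the widest spread. Genes on the Y chromosome and XIST were left out. Promoter windows come from RefSeq (GRCh38.p14), matched by symbol. The alternatives were other thresholds of detection, other lengths, thinned counts, DESeq2, other filters, the block and leaving out each library. Medium and low doses were not used. Some genes that the naming rule selects are not reported here.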

Additional observations from a re-analysis of the deposited data

How the results depend on the processing

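The count of expressed protein-coding genes was between 10954 (2 TPM) and 12240 (0.5 TPM) under all thresholds, lengths and subsets tried, and between 11688 and 11715 when 1 library was left out. The canonical transcript length, added after the data were seen, gave 11639. The undetected count was 2797 when 0 counts were required, 6234 at 10 counts or fewer, 5235 after thinning and 5052 to 5125 without 1 library. Of 630 list counts under other settings 507 were unchanged and 585 differed by at most 1 gene. The largest difference was 7, in cytokine receptors at 0.5 TPM (40 expressed). The median CpG counts by class did not move with another transcript length. Vehicle B against vehicle A gave 1 called gene, RGPD5, with no filter, 17 with the replicate block, and 0 to 2 when 1 library was left out. The 2, without vehicle B replicate 3, were RGPD5 (log2 fold change 2.15, adjusted p = 0.00136 in edgeR) and TGIF2-RAB5IF, whose reads cannot be told apart from those of the genes it joins. For the high doses, called genes ranged from 2994 to 4111 with WESF and from 2104 to 2943 with EESF, and from 3118 to 3186 and 2133 to 2453 without 1 library. There the replicate block gave 3156 and 2228 calls. No vehicle library correlated best with the high-dose library of its own number, and whether these share a preparation was not tested. The 144 tests of named genes under other settings cover only the genes with the largest called changes at a high dose. All stayed on the same side of the threshold, which that choice made likely. RGPD5 in the vehicle comparison is not among these tests, and its call depended on the setting. Levels near 1 TPM are the least certain, since 441 genes had a mean between 0.8 TPM and the reciprocal of that value. Depth limits what can be called undetected, and intervals at low counts cover counting error only. TPM rest on the exon length of the whole gene, and levels of single genes such as SLC1A3 move with that choice.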

Other observations

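Long non-coding RNAs were also counted. Of 14078 genes with that biotype 1076 reached 1 TPM in all 6 vehicle libraries, a smaller share than of protein-coding genes.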
